A study of Mus musculus with 4 samples.

Results

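Peaks of N6-methyladenosine (m6A) on the genes of vesicle traffic were examined in mouse liver RNA. The members were the genes whose symbol in either deposited peak list began with Rab, Arf or Arl and a number, or with Arfgef, Arfgap, Tbc1d or Dennd. They numbered 101 of the 9650 genes with a peak. They carried 148 of 14693 peaks in the list from Alkbh5-HKO livers (HKO below, a knockout whose short name no label explains) and 135 of 14057 peaks in the list from Alkbh5flox/flox livers (FF below), whose Alkbh5 gene is floxed. The ALKBH5 protein is a demethylase that takes m6A off RNA.

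In methylated RNA immunoprecipitation sequencing (MeRIP-seq), an antibody against m6A pulls down the RNA fragments that hold it, and a peak is a stretch of exon with more reads in this immunoprecipitate (IP) than the input accounts for. Mice of both groups were fed normal chow and used at 9 weeks of age, and RNA of 3 mice was pooled for each genotype. Each genotype had 1 IP and 1 input library, so differences between the lists lack any replicate check, and none was tested. The sources used here name neither the Cre driver nor the deleted part of Alkbh5.

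Rab, Arf and Arl proteins are small GTPases that mark the membranes of the cell and switch between an active form bound to GTP and an inactive form bound to GDP. Exchange factors, such as the Dennd and Arfgef proteins, load them with GTP, and GTPase-activating proteins, such as most Tbc1d and the Arfgap proteins, switch them off. In hepatocytes this machinery carries lipoproteins and plasma proteins out through the Golgi, takes up receptors through endosomes, and sorts cargo to the bile canaliculus and to lysosomes.

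By symbol, 55 members were GTPases (38 Rab, 13 Arl and 4 Arf), 37 were regulators of them and 9 were binding partners or other genes. Peaks were present on 64.7% of the 85 RefSeq protein-coding GTPase genes that fit the rule and on 66.1% of the 56 regulator genes, against 40.8% of all 21896 RefSeq protein-coding genes. Among the GTPase genes with no peak in either list were Arf4, Arl2, Arl6, Arl8a, Rab2b, Rab3a, Rab4b and Rab8b. A gene without a peak is not shown to lack m6A, because rarely read transcripts yield none and the lists hold no RNA levels. In bulk liver RNA, fewer cells of a type and less RNA per cell cannot be told apart.

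The knocked-out gene, Alkbh5, had 0 peaks in the HKO list and 3 in the FF list. Of 10 hepatocyte markers, 10 had a peak, of which 4 were listed for HKO alone and 1 for FF alone. Over all genes with a peak, 13.2% were in HKO alone and 11.2% in FF alone. Markers of other liver cells also had peaks, namely 4 of 8 for Kupffer cells and macrophages and 5 of 8 for endothelial cells, each in both lists. For stellate cells and fibroblasts 6 of 8 had a peak (2 in HKO alone). For cholangiocytes 2 of 6 did (1 in HKO alone), and for leukocytes 1 of 6 (in FF alone). No level can be given for them, and their part in the results was not tested.

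Most members had peaks in both lists. Of the 101 members, 75 did so, 15 had peaks in the HKO list alone (14.9%, 9.21 to 23.1, against 13.2% of all genes with a peak) and 11 in the FF list alone (10.9%, 6.19 to 18.5, against 11.2%). Ranges after a share are 95% Wilson intervals, which take in counting error alone. The members' shares thus lay close to those of all genes. Among GTPases 6 genes were found in HKO alone and 9 in FF alone. Among regulators 7 were found in HKO alone and 2 in FF alone.

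**Figure D1:**
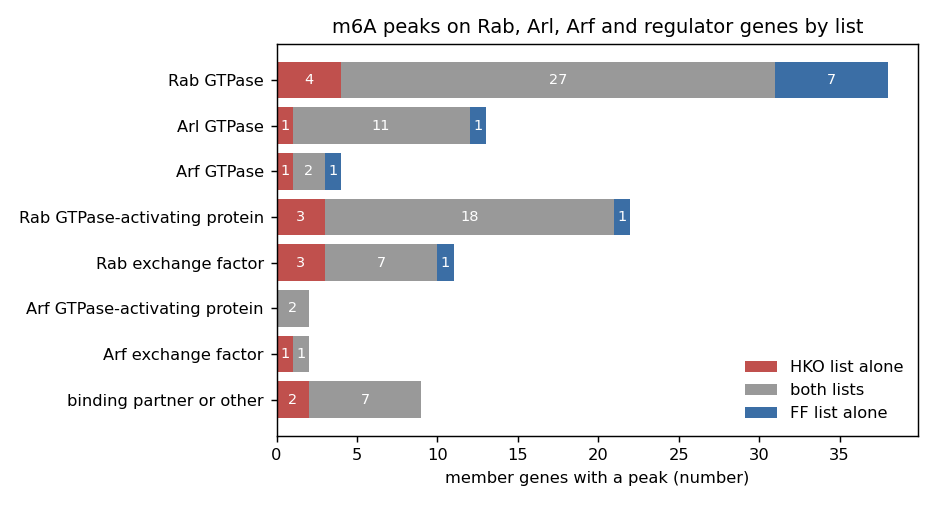
Number of member genes with a peak (horizontal axis) in each class by symbol, divided into genes found in HKO alone, in both lists and in FF alone. Rab GTPases form the largest class, with 4, 27 and 7 genes, and each class but that of the Arf exchange factors and the Arf GTPases has most of its genes in both lists.

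A peak counted as shared if 1 bp or more of its exon blocks lay under a same-strand peak of the other list. Of the member peaks, 52 of 148 in the HKO list overlapped no FF peak (35.1%, 27.9 to 43.1, against 28.5% of all HKO peaks), and 36 of 135 in the FF list overlapped no HKO peak (26.7%, 19.9 to 34.7, against 25.2% of all FF peaks). In the FF list the share was higher for GTPases than for regulators, a difference that was not tested, with 26 of 68 GTPase peaks (38.2%, 27.6 to 50.1) and 7 of 55 regulator peaks (12.7%, 6.30 to 24.0) that overlapped none. In the HKO list the shares were 23 of 65 (35.4%, 24.9 to 47.5) and 20 of 66 (30.3%, 20.6 to 42.2).

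Of the 49 GTPase genes in the FF list, 22, most of them Rabs, carried a peak at the start. A peak was placed at the gene start if the centre of its exonic sequence lay within 500 bp of the annotated start of the RefSeq gene span. Of GTPase peaks, 6 of 65 in the HKO list were at the start (9.23%, 4.30 to 18.7, against 7.38% of all HKO peaks) and 22 of 68 in the FF list (32.4%, 22.4 to 44.2, against 15.0% of all FF peaks). Regulator peaks were at the start in 5 of 66 cases in the HKO list (7.58%, 3.28 to 16.5) and 4 of 55 in the FF list (7.27%, 2.86 to 17.3). Of Rab GTPase peaks, 3 of 44 in HKO (6.82%) and 18 of 49 in FF (36.7%) were at the start. Arl GTPase peaks were at the start in 1 of 15 cases in HKO and 3 of 16 in FF (18.8%, 6.59 to 43.0). For Arf GTPases the counts were 2 of 6 in HKO and 1 of 3 in FF.

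**Figure D2:**
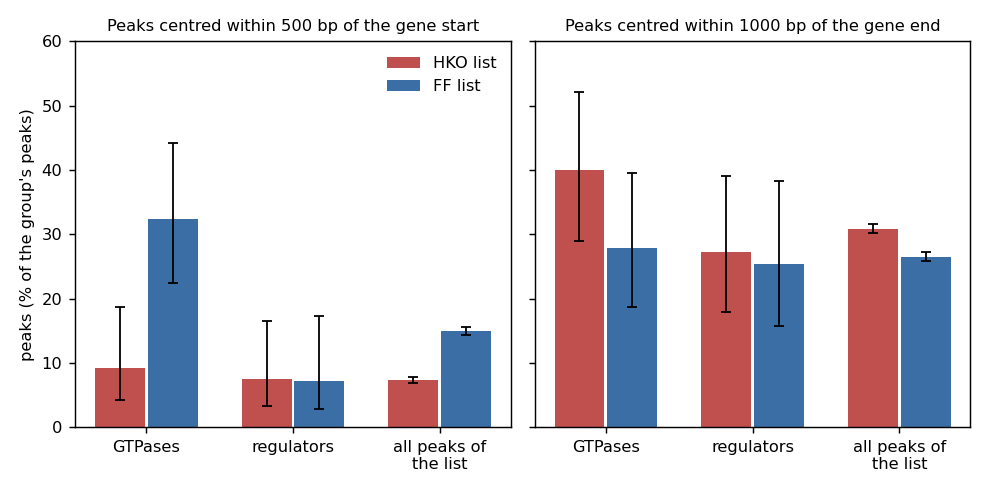
Share of peaks (%) centred within 500 bp of the gene start (left) and within 1000 bp of the gene end (right) for GTPases, regulators and all peaks of each list, with 95% Wilson intervals as error bars. The FF bar of GTPases at the start, at 32.4%, stands above the FF bars of regulators, at 7.27%, and of all peaks, at 15.0%.

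Counted by gene, 2 of 55 GTPases had a start peak in the HKO list alone (3.64%, 1.003 to 12.3, against 2.40% of all genes), 18 had one in the FF list alone (32.7%, 21.8 to 45.9, against 13.0%) and 4 had one in both (7.27%, 2.86 to 17.3, against 8.66%). With peaks above a q of 1e-05 left out, 11 GTPases had one in the FF list alone. These 11 are not all from the 18, since they include Rab12, whose HKO start peak (log10 q -2.82) the cutoff removed. Of 37 regulators, 2 had a start peak in the HKO list alone, 1 in the FF list alone (2.70%, 0.479 to 13.8) and 3 in both. The 18 GTPases were Arl4c, Arl5a, Arl10, Rab2a, Rab5b, Rab5c, Rab6a, Rab7, Rab10, Rab11a, Rab14, Rab17, Rab18, Rab22a, Rab24, Rab29, Rab35 and Rab40c. They span the secretory route (Rab2a, Rab6a), early and late endosomes (Rab5b, Rab5c, Rab22a, Rab7), recycling (Rab11a, Rab35) and lipid droplets (Rab18). Of their start peaks in the FF list none overlapped an HKO peak. A gene with an HKO start peak was left out of the 18 by definition.

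The 22 FF start peaks of GTPases began close to the annotated start, with the nearer edge at a median of 30 bp (0 to 239 bp) and within 60 bp in 18 of them. They were 89 to 390 bp long in exonic sequence, and 9 of them crossed an exon junction, as the file's blocks show. Strong peaks, meaning a fold of 2 or more with q no higher than 1e-05, were 14 of the 22. The 22 folds ran from 1.94 on Rab14 to 29.0 on Rab5a, with a median of 7.79, against 11.85 for the 46 other FF peaks of GTPases. The 6 HKO start peaks of GTPases had folds of 2.19 to 9.33 with a median of 2.33, against 8.88 for the 59 others. Over all peaks the median fold was 5.86 at the start and 11 elsewhere in HKO. In FF it was 8.81 at the start and 8.80 elsewhere.

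The sequence is shown for the start of each GTPase with a start peak in FF alone whose listed start lay inside that peak. Arf3 is added as an example with a start peak in both lists. These peaks reach a listed start. RefSeq (GRCm38.p6) listed promoters for 84 of the 101 members, and 5 of their 112 listed starts lay under an HKO peak and 14 under an FF peak. The lists as a whole lean the same way. A listed start lay under 2.70% of member HKO peaks (3.12% of all HKO peaks) and 9.63% of member FF peaks (6.75% of all FF peaks). Each line gives 70 bases before the listed start in lower case and the first 30 bases from it in capitals, on the gene's own strand. For Rab7, Rab29 and Rab35 the listed start shown is not that of the gene span but lies downstream of it. Most or all of their lower-case bases thus lie inside the gene span, and their peaks can extend into them. The start of Arf3 lay under a peak in both lists and the other 7 under an FF peak alone.
Arf3, chr15:98763089-98763188, minus strand: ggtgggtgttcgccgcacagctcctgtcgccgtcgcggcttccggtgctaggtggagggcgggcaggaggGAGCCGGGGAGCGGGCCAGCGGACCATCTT
Arl5a, chr2:52424845-52424944, minus strand: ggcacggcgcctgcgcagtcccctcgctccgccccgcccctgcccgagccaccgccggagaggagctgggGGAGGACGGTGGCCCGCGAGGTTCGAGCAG
Rab7, chr6:88044988-88045087, minus strand: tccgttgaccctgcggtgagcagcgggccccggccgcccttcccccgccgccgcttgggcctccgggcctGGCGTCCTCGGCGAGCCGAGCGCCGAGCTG
Rab11a, chr9:64737727-64737826, minus strand: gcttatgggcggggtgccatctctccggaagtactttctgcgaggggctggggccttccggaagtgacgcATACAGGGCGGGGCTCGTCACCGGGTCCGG
Rab24, chr13:55321951-55322050, minus strand: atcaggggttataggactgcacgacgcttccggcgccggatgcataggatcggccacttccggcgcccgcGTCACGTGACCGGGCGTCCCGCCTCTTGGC
Rab29, chr1:131867207-131867306, plus strand: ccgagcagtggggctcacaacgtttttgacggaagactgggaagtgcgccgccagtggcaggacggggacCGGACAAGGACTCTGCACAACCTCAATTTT
Rab35, chr5:115631917-115632016, plus strand: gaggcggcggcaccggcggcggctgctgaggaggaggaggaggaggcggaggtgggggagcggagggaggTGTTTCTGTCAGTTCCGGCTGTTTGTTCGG
Rab40c, chr17:25919685-25919784, minus strand: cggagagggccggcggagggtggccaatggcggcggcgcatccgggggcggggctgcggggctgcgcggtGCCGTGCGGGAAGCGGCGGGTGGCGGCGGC

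These starts were rich in G and C. The first 50 transcribed bases had a median GC content of 72% at the 14 starts under an FF peak, 68% at all 57 listed GTPase starts, 72% at 45 regulator starts and 60% at 21262 listed starts of protein-coding genes. The methyltransferase that makes m6A acts most often on an A within GGAC and its neighbours. GGAC, searched on the transcribed strand only, stood in the first 50 bases of 3 of the 14 starts (21.4%), against 19.97% of all protein-coding starts. It stood in those of 6 of the 57 GTPase starts (10.5%) and 10 of the 45 regulator starts (22.2%). It began at base 21 of Arf3, base 4 of Arl5a, and bases 2 and 8 of Rab29, where the second copy is part of GGACT. The other 5 starts shown have no GGAC in these 50 bases.

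The endosomal Rabs are given peak by peak. Rab5a, Rab5b and Rab5c encode the isoforms of the GTPase of early endosomes. Rab5a (chromosome 17, plus strand) had HKO peaks at 53479294 to 53479533 (fold 2.39, log10 q -11.4), 53483895 to 53484044 (4.19, -7.11) and 53506332 to 53506691 (7.64, -23.2), and FF peaks at 53479264 to 53483865 across a junction (fold 29.0, log10 q -76.0) and 53506332 to 53506601 (2.95, -15.9). Within the HKO list the peak near the gene end had the highest fold of the gene, and within the FF list the start peak had it.

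Rab5b (chromosome 10, minus strand) had an HKO peak at 128679163 to 128679490 (fold 4.92, log10 q -5.86), 2157 bp before the gene end. Its FF peaks were at 128677765 to 128677943 (2.38, -6.99), 684 bp before the end, and at 128696135 to 128696225 (14.1, -2.75), at the start. That start peak overlaps a peak listed for Pmel on the other strand, so its reads cannot be assigned to Rab5b with certainty. Rab5c (chromosome 11, minus strand) had HKO peaks at 100715452 to 100715571 (2.44, -9.68) and 100715840 to 100716050 (4.10, -10.5), both within 1000 bp of the gene end, and an FF peak at 100720097 to 100738185 across a junction (3.45, -4.01), at the start. No HKO peak of Rab5b or Rab5c overlapped an FF peak of the same gene.

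Rab7, the GTPase of late endosomes and lysosomes, had an HKO peak at 88000268 to 88000476 on chromosome 6 (fold 4.32, log10 q -38.6), 1266 bp before the gene end. Its FF peak, at 88045007 to 88045240 (5.15, -5.42), was centred 119 bp from the start. Rab18, which sits on lipid droplets, had an HKO peak of fold 1.5 (log10 q -3.10), 2938 bp before the gene end, and an FF peak of fold 6.46 (log10 q -6.06), 120 bp from the start. With Rab5b, Rab5c and the regulator Tbc1d25 these made 5 of the 75 members found in both lists without any overlapping peak (against 4.09% of all genes found in both).

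**Figure D3:**
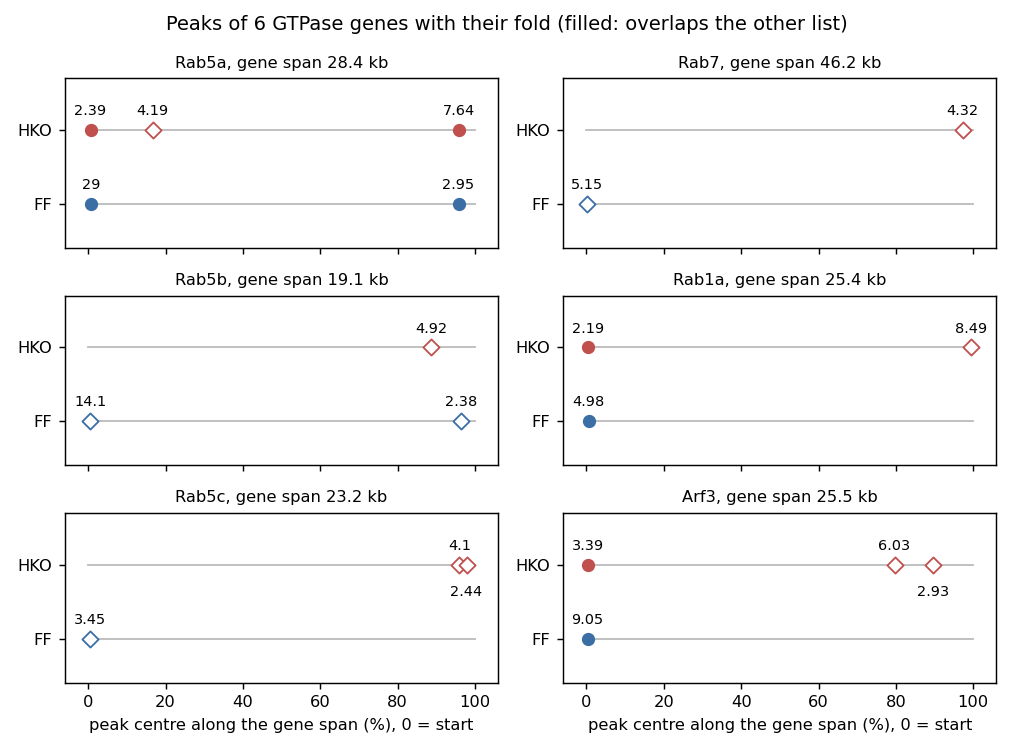
Peak centres along the gene span (%, 0 at the start) in the HKO list (upper line) and the FF list (lower line) for 6 GTPase genes, with the fold of IP over input printed at each peak. Filled circles overlap a peak of the other list and open diamonds overlap none. Rab5b, Rab5c and Rab7 have HKO peaks near the end alone and an FF peak at the start.

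Other endosomal and recycling Rabs varied in where their peaks lay. Rab11a, the main GTPase of recycling endosomes, had no HKO peak and 1 FF peak, at 64737636 to 64737756 on chromosome 9 (fold 3.92, log10 q -6.45), which ends at the annotated start. Its close relative Rab11b had 1 HKO peak (fold 11.9, log10 q -3.56), 5154 bp before the gene end, and no FF peak. Rab22a had a shared peak 916 bp before its end in HKO (fold 9.15) and 901 bp in FF (13.2), and had a further FF peak at the start (9.99, log10 q -7.57). Rab35 was alike, with a shared peak of fold 22.1 in the HKO list and 11.7 in the FF list and a further FF start peak of fold 16.4 (log10 q -5.13).

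Rab4a, a GTPase of fast recycling, had all its peaks at the gene end. Its HKO peaks had folds of 2.97 (log10 q -10.3) and 9.05 (-18.5) and its FF peak 3.97 (-18.9), and the HKO peak of fold 2.97 overlapped no FF peak. Rab21, which acts in integrin uptake, had peaks in both lists 839 and 884 bp before the end (fold 8.88 in HKO and 2.52 in FF) and 1933 and 2008 bp from the start (7.35 in HKO and 13.9 in FF). Rab17, a GTPase of polarised epithelial cells, had a shared peak near its end (7.95 in HKO and 7.35 in FF) and an FF start peak (3.04, log10 q -1.94).

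Among GTPases of the secretory route, both start and end peaks were found. Rab1a (chromosome 11, plus strand), which acts between the endoplasmic reticulum and the Golgi, had HKO peaks at 20201442 to 20201652 (fold 2.19, log10 q -13.3) and, 150 bp before the gene end, 20226616 to 20226796 (8.49, -18.9), and an FF peak at 20201442 to 20215659 (4.98, -42.9) at the start. The start peaks overlapped each other and the end peak had no FF counterpart. Its paralogue Rab1b had no HKO peak and 1 weak FF peak (fold 1.46, log10 q -3.00), 1258 bp before the end. Rab2a, of the intermediate compartment, had 1 FF peak at the start that crosses a junction (9.14, log10 q -19.0) and no HKO peak.

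Rab6a, a Golgi GTPase, had 1 FF peak, 432 bp from the start (fold 2.85, log10 q -3.89), and no HKO peak. That peak overlaps one listed for Mrpl48 on the other strand and is uncertain. Rab10, which carries cargo to the cell surface, had 1 FF start peak (3.52, log10 q -5.06), and Rab14, of the Golgi and endosomes, had 1 (1.94, log10 q -3.63). Neither had an HKO peak. Rab8a, an exocytic GTPase, had a shared peak 665 bp before the gene end in HKO (fold 3.79, log10 q -34.0) and 724 bp in FF (3.09, -31.9). Rab43, a Golgi GTPase, had 3 peaks in each list, and the peaks that overlapped none of the other list lay 868 bp before the gene end in HKO (fold 2.72, log10 q -21.2) and 532 bp from the start in FF (10.2, log10 q -11.0).

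Rab24, linked to autophagy, had an FF start peak at 55321741 to 55321980 on chromosome 13 (fold 14.9, log10 q -21.9) that overlapped no HKO peak, beside a shared peak of fold 11 in the HKO list and 10.2 in the FF list. The FF start peaks of Rab40c (13.7, log10 q -5.70) and Rab29 (3, log10 q -1.92) likewise had no HKO counterpart, and Rab29 had no other peak. Rab12 had a start peak and an end peak in both lists, with folds of 2.24 and 6.20 in the HKO list and 9.62 and 12 in the FF list. In both lists the end peak of Rab12 was thus the higher of the pair.

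Rabs found in the HKO list alone were Rab11b (above), Rab19, Rab27a, a GTPase of secretory granules, and Rab28, each with 1 peak. The fold was 20.4 on Rab19 (log10 q -4.44), 11.9 on Rab27a (-2.14) and 11.9 on Rab28 (-3.25). None of the 4 reached a q of 1e-05. The highest folds of GTPases in the HKO list belonged to Rab33b, a Golgi GTPase that binds the autophagy protein Atg16l1 (65.3, with 10.8 and 21.1 for the FF peaks that it overlapped), Arl13b, a ciliary GTPase (51.8, with 13.7 in FF), and Arl15 (50.9, with 19.6 in FF). In the FF list they belonged to Rab23, a regulator of Hedgehog signalling (76.0, with 19.2 in HKO), Arl16 (75.2, with 38.2 in HKO) and Arl4c (36, with 26.3 in HKO). All 6 were shared peaks, and since each list rests on its own IP, folds set beside each other show no gain or loss.

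**Figure D4:**
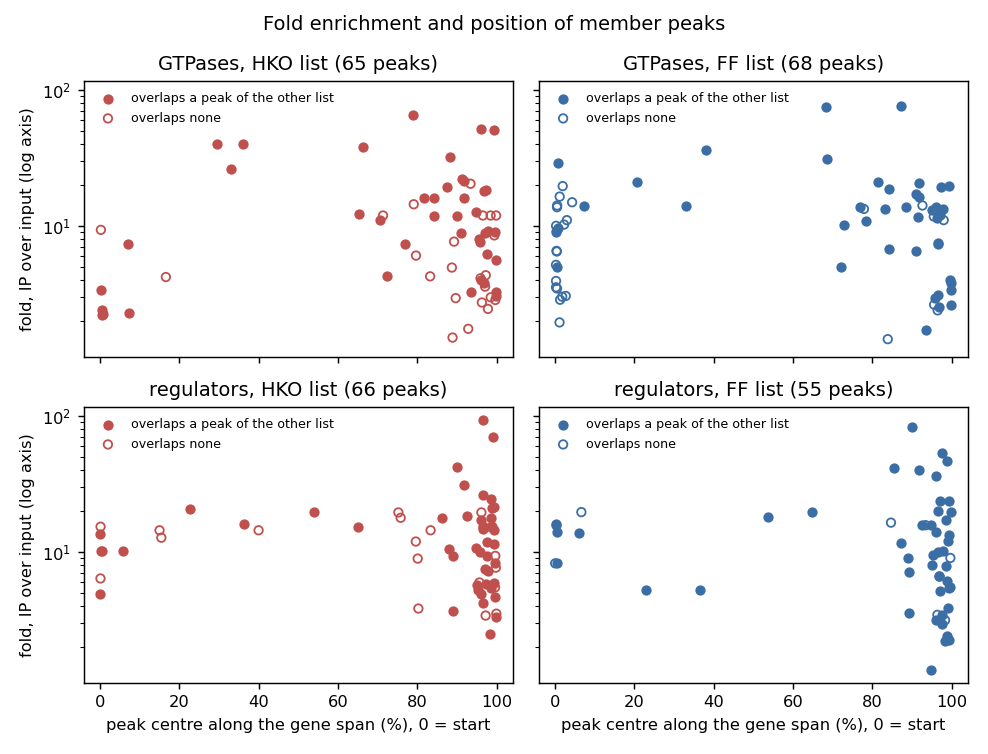
Fold enrichment of IP over input (log axis) against the position of the peak centre along the gene span (%, 0 at the start) for GTPases (upper row) and regulators (lower row) in the HKO list (left) and the FF list (right). Filled points overlap a peak of the other list and open points overlap none. Open points gather at 0% in the FF panel of GTPases, where 18 of the 22 start peaks overlap no HKO peak. Over all genes, 1227 of 2109 FF start peaks overlap no HKO peak. In the HKO panel of GTPases, 11 of the 23 open points lie within 1000 bp of the gene end.

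Several Arf and Arl GTPases had peaks with a very low q. Arf6 (chromosome 12, plus strand), which acts at the plasma membrane, had HKO peaks at 69372340 to 69372519 (fold 2.27, log10 q -8.81) and 69372877 to 69373682 (39.8, -265). It had 1 FF peak at 69372150 to 69373623 (21.1, -217) that overlapped both. The FF peak spans the HKO start peak but is centred 787 bp from the start, so Arf6 counts as having a start peak in HKO alone. Arl4d, a relative of Arf6, had a shared peak whose log10 q was listed as minus infinity in both lists. Its fold was 12.3 over 882 bp in HKO and 31.2 over 912 bp in FF. Arl4a had a shared peak of fold 40 (log10 q -100) in HKO and 13.9 (-194) in FF. These peaks were long, against a median exonic length of 269 bp over all HKO peaks and 241 bp over all FF peaks.

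Arf1, which recruits the coat of Golgi vesicles, had 1 HKO peak, chr11:59212544-59212693 (fold 1.74, log10 q -8.95). No FF peak was listed for it. Arf5 had the reverse, with 1 FF peak 134 bp before the gene end (2.62, log10 q -15.6) and none in HKO. Arf3 had a start peak with the same limits in both lists, 98762969 to 98763118 on chromosome 15 (fold 3.39 in HKO and 9.05 in FF). A further 2 HKO peaks of Arf3 lay under no FF peak (2.93 with log10 q -5.43, and 6.03 with -8.13).

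Arl1, a GTPase of the trans-Golgi, had 1 HKO peak 45 bp before the gene end (fold 2.84, log10 q -5.45) and no FF peak, and Arl5b had 1 FF peak (13.3, log10 q -2.54) and no HKO peak. Arl5a had a shared peak (16.1 in HKO and 18.6 in FF) and an FF start peak (6.53, log10 q -5.22). The FF start peaks of Arl10 (19.6, log10 q -4.27) and Arl4c (11, log10 q -1.92) did not reach a q of 1e-05. Arl3, a ciliary GTPase, had the reverse, with an HKO peak 119 bp from the start (9.33, log10 q -3.58) and none at the start in FF. Arl8b, which moves lysosomes, had a shared end peak of fold 3.24 in HKO and 3.36 in FF.

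Among regulators, 20 of 66 HKO peaks overlapped no FF peak (30.3%, against 28.5% of all HKO peaks). In the FF list 7 of 55 overlapped no HKO peak (12.7%, against 25.2% of all FF peaks). Of these, Rab exchange factors had 11 of 21 in HKO (52.4%, 32.4 to 71.7) and 2 of 12 in FF. Rab GTPase-activating proteins had 8 of 40 in HKO (20%, 10.5 to 34.8) and 5 of 39 in FF. The difference between them was not tested. Tbc1d16 (4 HKO and 6 FF peaks), Tbc1d24 (5 and 4) and Tbc1d2b (3 and 4), classed as GTPase-activating proteins by symbol alone, had the most peaks. Of the 9 peaks of Tbc1d24, only the HKO peaks at 24176209 to 24176329 (fold 3.39, log10 q -1.89) and 24180310 to 24180579 on chromosome 17 (14.4, -5.96) overlapped none of the other list. The highest folds in the HKO list were those of Tbc1d30, an activating protein of Rab8 (94.2, with 20 in FF), Tbc1d8 (69.9, with 12.1 in FF) and the exchange factor Rab3il1 (42.4, with 83.0 in FF). In the FF list they were those of Rab3il1, of a second peak of Tbc1d30 (53.3, with 11.9 in HKO) and of Dennd3, an exchange factor of Rab12 (47.0, with 15.3 in HKO).

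Tbc1d1 and Tbc1d4, the insulin-regulated activating proteins of Rab10 that hold back the glucose transporter of muscle and fat, each had 1 shared peak. Tbc1d1 had a fold of 21.5 in the HKO list (log10 q -15.2) and 23.5 in the FF list (-17.2), and Tbc1d4 17.8 (-3.73) and 7.83 (-2.52). Arfgap1 and Arfgap2, activating proteins of Arf1 at the Golgi, also had peaks in both lists. Those of Arfgap1 had folds of 18.5 and 14.8 in HKO and 15.7 and 6.63 in FF. The peak of Arfgap2 had 5.26 in HKO and 1.34 in FF and overlaps peaks listed for 1110051M20Rik on the other strand.

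Of the 7 regulators found in HKO alone, 3 were Dennd exchange factors. Dennd4a and Dennd4c, exchange factors of Rab10, had 3 and 2 HKO peaks, with folds of 3.82 to 11.9 and of 19.5 and 17.8, none at a q of 1e-05. Dennd1a, the exchange factor of Rab35, had 2 (9.33 with log10 q -3.25, and 5.46 with -5.23). Tbc1d14, which acts in autophagy, had 2 HKO peaks (12.7 with log10 q -6.77, and 14.4 with -2.81). Tbc1d22b (15.3, log10 q -3.04), Tbc1d32 (7.64, -2.40) and Arfgef1, an exchange factor of Golgi Arfs (6.36, -1.79), had 1 each. The 2 regulators in the FF list alone were Dennd11 (16.4, log10 q -3.39) and Tbc1d22a, with a start peak (8.22, log10 q -2.71).

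Start peaks of regulators were few. Tbc1d2b, Tbc1d12 and Dennd5a had one in both lists, with folds of 4.88, 10.2 and 13.6 in HKO and 16.1, 14.1 and 15.7 in FF. Tbc1d15, an activating protein of Rab7, had one in HKO alone (15.3, log10 q -3.04), as did Arfgef1. The spans of regulator genes were longer, with a median of 75.1 kb (8.30 to 488 kb), against 22.7 kb (2.29 to 363 kb) for GTPase genes and 22.03 kb for all genes with a peak. The part of gene length in the difference between the classes was not tested.

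Of the binding partners, the Rab11 effector gene Rab11fip3 had 4 HKO peaks and 1 FF peak, and 3 of the HKO peaks overlapped none (10.2 with log10 q -7.66, 14.4 with -5.96, and 3.39 with -2.46). The peak of fold 10.2 overlaps one listed for 1700022N22Rik on the other strand. Rab11fip4 (11.9, log10 q -2.14) and Arl6ip5 (4.36, log10 q -14.4) were in the HKO list alone. Rab11fip2 had a start peak in HKO alone (5.66, log10 q -2.29). Arl6ip4 (3.39, log10 q -10.5) and Rab5if (4.64, log10 q -46.6) had one in FF alone. Arl14ep had 3 peaks in each list, of which 1 HKO peak (11.9, log10 q -2.14) overlapped none. The non-coding gene Rab10os, which overlaps the span of Rab10 on the other strand, had a shared peak within that span, with a fold of 53.5 in HKO and 4.94 in FF.

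The naming rule took every member found in a single list or with a strong list-specific peak, so the 35 it left out had peaks in both lists by construction. Of their peaks, 9 of 55 in HKO and 6 of 52 in FF overlapped none of the other list. The shares over all peaks were 28.5% in HKO and 25.2% in FF. Since the rule took out every member with a strong list-specific peak, it lowers these counts by construction. Their folds were 2.24 to 53.5 in HKO and 1.34 to 31.2 in FF, with medians of 11 and 10.55. Some had peaks with a very low q. Rab9, which returns receptors from late endosomes to the Golgi, had a shared end peak of fold 17.9 in HKO (log10 q -262) and 7.51 in FF (-212). Rab20 had one of fold 18.4 in HKO (-105) and 19.4 in FF (-89.5), and Tbc1d9b had one of fold 7.16 in HKO (-76.6) and 10.1 in FF (-124).

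Towards the gene end the lists differed less. Of GTPase peaks, 26 of 65 in the HKO list (40%, 29.0 to 52.1, against 30.9% of all HKO peaks) and 19 of 68 in the FF list (27.9%, 18.7 to 39.6, against 26.5% of all FF peaks) had their centre no more than 1000 bp from the gene end. Of the 101 members, 12 had an end peak in the HKO list alone (11.9%, against 12.1% of all genes), 4 in the FF list alone (3.96%, against 5.25%) and 31 in both (30.7%, against 30.1%). These shares lay close to those of all genes.

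The peaks that overlapped none of the other list were also placed along the gene. Of the 23 such HKO peaks of GTPases, 1 was at the start (4.35%, 0.772 to 20.99, against 4.71% of all such HKO peaks) and 11 at the end (47.8%, 29.2 to 67.0, against 33.5%). Of the 26 such FF peaks, 18 were at the start (69.2%, 50.01 to 83.5, against 34.7% of all such FF peaks) and 3 at the end (11.5%, 4.00 to 29.0, against 17.0%). Of the 20 such HKO peaks of regulators 2 were at the start and 5 at the end, and of the 7 such FF peaks 1 was at the start and 1 at the end. Strong ones numbered 17 of 148 member peaks in HKO (11.5%, against 8.87% of all HKO peaks) and 15 of 135 in FF (11.1%, against 6.40%). Of these, 11 and 13 lay on GTPases and 3 and 0 on regulators.

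Members found in a single list were few. Of the 15 members in the HKO list alone, 1 had a start peak and 5 an end peak (33.3%), and of the 11 in the FF list alone, 7 had a start peak and 1 an end peak. A start peak was present on 6.83% of all genes found in HKO alone and on 41.6% of those found in FF alone. An end peak was present on 46.6% and 27.1% of them. Where a member had both a start peak and another peak in a list, the start peak had the higher fold in 2 of 11 cases in HKO (18.2%, 5.14 to 47.7, against 34.1% of all such genes) and in 9 of 16 in FF (56.2%, 33.2 to 76.9, against 57.1%).

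Other genes of the pathway, such as effectors and coat subunits, had shares of start peaks below the 32.4% of GTPases in FF and near or below those of all peaks, at 7.38% in HKO and 15.0% in FF. These differences were not tested. Of 65 further Rab pathway genes, 45 had a peak, with 6 in HKO alone, 4 in FF alone and 35 in both. Over all genes with a peak, 13.2% were in HKO alone and 11.2% in FF alone. Their peaks were at the start in 1 of 63 cases in HKO (1.59%, 0.281 to 8.46) and 7 of 67 in FF (10.4%, 5.15 to 20.03). Of 60 further Arf and coat genes, 44 had a peak, with 8 in HKO alone, 6 in FF alone and 30 in both, and start peaks in 3 of 64 cases in HKO (4.69%, 1.61 to 12.9) and 8 of 58 in FF (13.8%, 7.16 to 24.9). The small GTPase genes among them are given here by name, chosen after their values were seen. Sar1b, which starts vesicle budding from the endoplasmic reticulum, and Arfrp1, a Golgi GTPase, each had 1 FF peak at the start (3.68 with log10 q -8.53, and 25.8 with -7.25) and no HKO peak. Sar1a had shared peaks near the gene end (15.8 and 7.50 in HKO, 7.41 and 3.55 in FF). Gdi2, which extracts Rabs from membranes, had 1 HKO peak (1.72, log10 q -14.0) and no FF peak.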

How the data were processed

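Per the labels and design text, the authors ran exomePeak 2.16.0 on each genotype's IP and input and listed peaks under a q of 0.05. HOMER 4.9.1, BWA 0.7.12, fastp 0.19.11 and build GRCm38.p6 also stand in the submitters' processing notes, without roles. The sources disagree on the antibody and the library kit. The deposited lists hold a p-value per peak, and log10 p and log10 q, each a score that the authors list as minus infinity where it fell below the smallest number held. Fold enrichment was deposited as a ratio, IP to input, and is the authors' own value. The lists hold no read totals, so depth is unknown. No source used here says whether the authors counted by strand, so overlapping genes cannot be told apart.

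Blocks were overlapped and placed on RefSeq gene spans with Python 3.11.15, pandas 2.3.3, numpy 2.4.6 and scipy 1.17.1, and drawn with matplotlib 3.10.9. Overlap and position steps were tested on simulated data and checked with bedtools. Coordinates count from base 1. Members, lists and windows were chosen with earlier results of these data known. Genes were named if in a single list, with a list-specific peak of q 1e-05 or less and fold 2 or more, with a start peak in 1 list alone, among the 5 with most peaks or the 3 highest folds per class and list, or fixed by name. Others named, namely Rab12, Rab21, Rab9, Rab20, Arl4a, Arl4d, Arl8b, Arfgap1, Arfgap2, Dennd5a, Tbc1d9b, Tbc1d12, Tbc1d25 and Rab10os, were chosen after their values were seen. Parts of transcripts and peak sequences were not analysed here. Alternatives were other cutoffs of q, fold, overlap and distance, and lists of equal length.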

Additional observations from a re-analysis of the deposited data

How the results depend on the processing

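No paired analysis was possible because each genotype had 1 pool and the labels give no replicate numbers. Of 55 alternative values of 13 results, 48 stayed within 1.5 times the count or within the Wilson interval of the value given above. With peaks above a q of 1e-05 left out, members in the FF list alone numbered 7 (11 with all peaks), GTPases with a start peak in the FF list alone 11 (18 with all peaks), and member HKO peaks at the start made up 4.30% (8.11% with all peaks). Fewer peaks were left at that q by construction, and Rab12 is among the 11 only because its HKO start peak was left out. With an overlap of at least 50% of the longer peak, 37.0% of member FF peaks overlapped no HKO peak (26.7% with 1 bp). With a window of 500 bp at the gene end, the shares were 14.2% in HKO and 11.9% in FF (32.4% and 25.9% with 1000 bp), as a narrower window must hold fewer. With any base within 500 bp of the start, regulators with a start peak in the FF list alone numbered 2 (1 by the centre). The results for GTPases and regulators alone, starts listed in RefSeq beside that of the gene span, and the removal of peaks that overlap a peak of another gene were added after the data were seen. Without those peaks, 16 GTPases had a start peak in the FF list alone. How far depth limits the lists is unknown.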
